A study of Rattus norvegicus with 12 samples.

Results

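A list of 9 genes known for setting or marking cardiac chamber identity were followed in both atrial appendages of rats with volume overload. They were Irx3, Irx4, Irx5, Hey1, Hey2, Hand1, Hand2, Nr2f2 and Lrrc10. They were given as a list by symbol, and all 9 were measured, among 14217 named genes. The array carried 17 probe sets (groups of short probes read as 1 value) that its annotation assigned to 1 of these symbols alone, of 31042 probe sets tested.

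The animals were male Sprague-Dawley rats of 225 to 275 g, studied 28 days after surgery. The operation was either a sham or an aorto-caval shunt, which joins aorta and vena cava and so loads the heart with extra volume. The 4 groups were the right and the left atrium of sham rats and of shunt rats. Each held 3 pools of 2 tissues, with 1 array per pool, so p-values measure the spread between these pools. The age and any agent given are not stated in the labels, no genotype was altered in any group, and the tissue entry of the labels names ventricles besides atria.

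In the developing heart, ventricular muscle is set apart from atrial muscle by transcription factors that repress or favour chamber genes. Irx4, a homeobox factor, marks ventricular muscle, and in the mouse Hey2, a Notch-responsive bHLH repressor, keeps atrial genes low in the ventricular wall. In the mouse Nr2f2 (COUP-TFII), an orphan nuclear receptor, acts in atrial muscle, where its loss lets ventricular genes such as Irx4, Hey2 and Myl2 appear. Irx3 serves the ventricular conduction system and Irx5 the gradient of repolarisation across the ventricular wall. Hand1 and Hand2 are bHLH factors that in the mouse embryo favour the left and the right ventricle. Lrrc10 is a leucine-rich repeat protein of cardiac muscle and not a transcription factor. Hey1, Hey2 and Nr2f2 are also active in vessels, and Hand2 in sympathetic neurons.

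The values are log2 RMA values: a difference of 1 is a 2-fold difference, and values of different probe sets cannot be set against each other. Genes of atrial muscle were bright on all arrays. The mean of Myl7, Myl4, Nppa and Sln, genes of atrial muscle, lay between 13.93 and 14.03 on the 12 arrays, close to the highest value of any probe set (14.43), where differences are compressed, so it does not show how much other tissue a sample held. Ventricular muscle genes were not low everywhere. Myl2, the ventricular regulatory light chain of myosin, was at least 10.9 in the right atrium sham pools and at most 5.45 in those of the left atrium. The left atrium shunt pools were the most uneven: 626 probe sets ranged over at least 1 log2 among them, against 55 to 61 in each other group. Which pool lay apart in these probe sets was not counted. Left atrium shunt replicate 3 was the highest of its group in the mean of 5 adipocyte genes, at 7.84 against 6.28 and 6.97. Among the 5, Ucp1 differed most there, at 7.56 against 4.22 and 4.66, while Cfd was higher on replicate 2 (7.91 against 7.62).

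The 9 genes fell on both sides of a right to left difference. In the sham atria 4 probe sets, of Irx3, Irx4, Hey1 and Hey2, were lower in the left atrium, and 5, of Hand1, Hand2 (both probe sets), Nr2f2 and Lrrc10, were higher there. These 9 of 17 called probe sets (52.9%) stand beside 36.1% of all probe sets called in this comparison, with 20.1% higher and 16.1% lower, so a right to left difference as such was common. A call means an adjusted p under 0.05 in limma, a linear model fitted to all 31042 probe sets, with Benjamini-Hochberg adjustment over all of them. The arrays of the groups did not overlap for 12 of the 17 probe sets, 8 higher and 4 lower in the left atrium, against 50.4% of all probe sets, 27.2% higher and 23.2% lower. The median difference was 0.18 over the 17 probe sets and 0.02 over all.

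**Figure D1:**
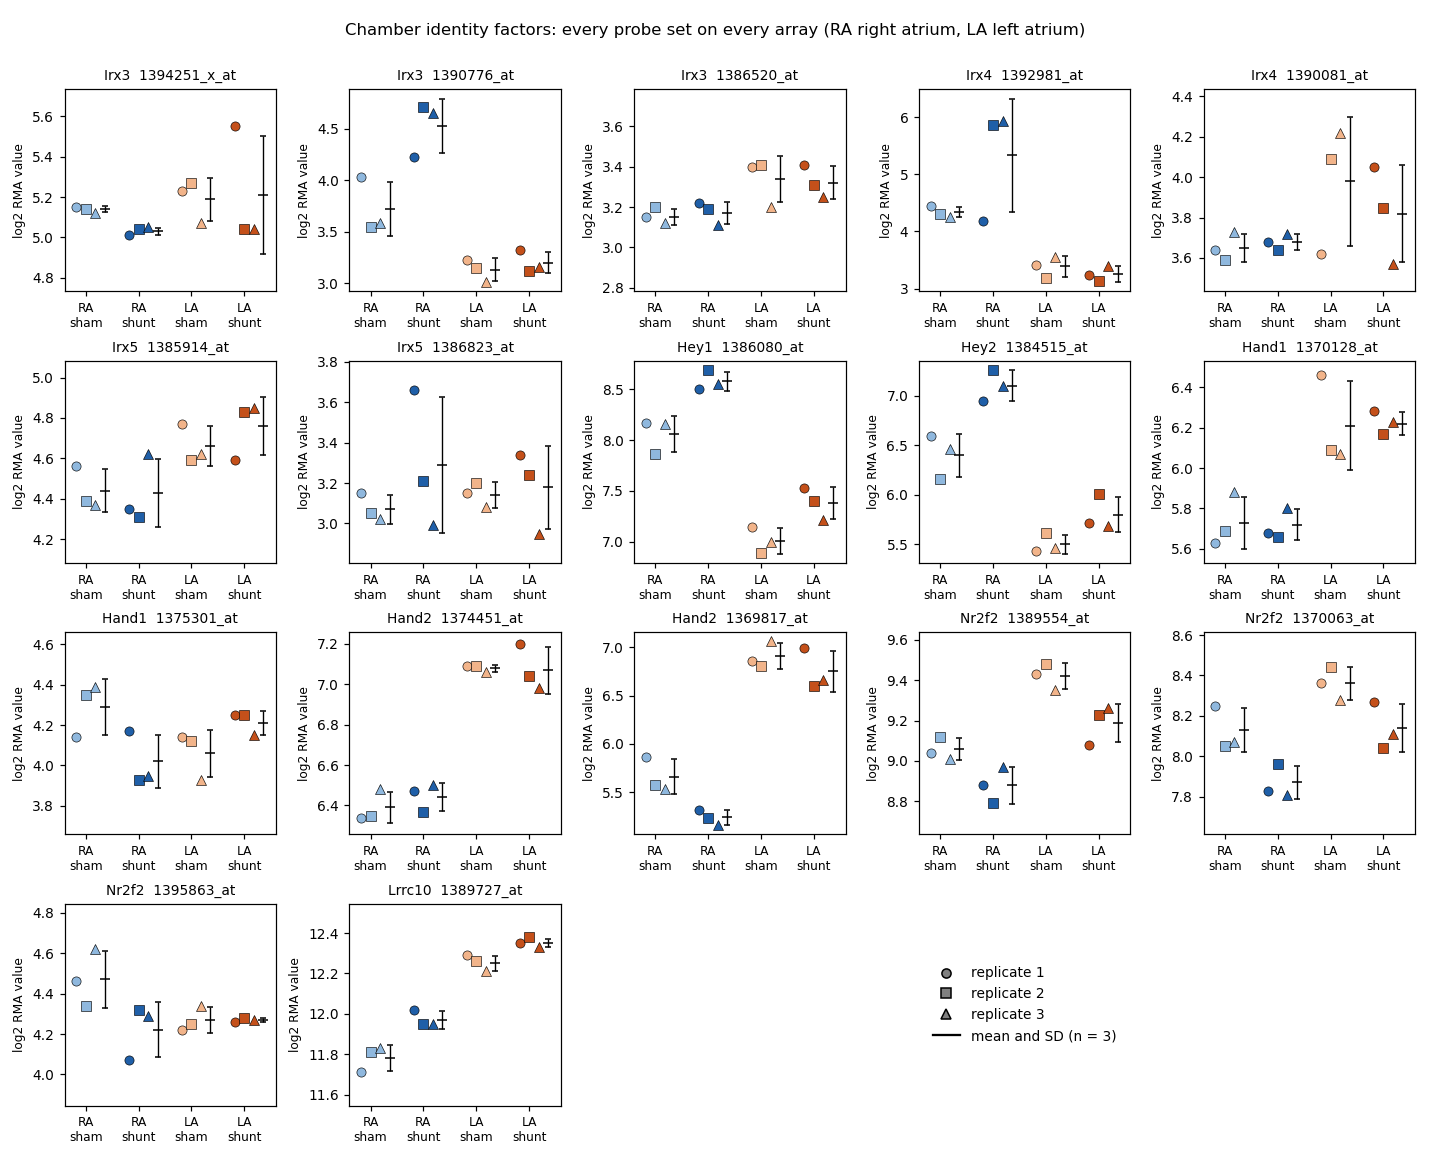
Log2 RMA value (y axis, own scale in each panel) of each of the 17 probe sets on the 12 arrays, by group (x axis: RA right atrium, LA left atrium), with the mean and SD of 3 pools as a bar. Hey1 and Hey2 are higher in the right than in the left atrium and lie higher after shunt in both (passing the test in the right atrium only), while Irx4 (1392981_at) is raised on only 2 of the 3 right atrium shunt pools.

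The promoters of 3 genes with a probe set called higher on the right (Irx3, Irx4, Hey2) and of Hand2, higher on the left, are shown because these genes carry the sided pattern. They come from RefSeq, build GRCr8, as windows of 300 bases around the gene start, and the table held 6 of the 9 genes. Capitals mark the core of the motif of RBPJ, the DNA-binding partner of Notch, TGGGAA or its reverse complement TTCCCA. They span chr19:31384868-31385167, plus strand, for Irx3, chr1:31868040-31868339, minus strand, for Irx4, chr1:28640850-28641149, plus strand, for Hey2, and chr16:37931439-37931738, minus strand, for Hand2.
Hey2: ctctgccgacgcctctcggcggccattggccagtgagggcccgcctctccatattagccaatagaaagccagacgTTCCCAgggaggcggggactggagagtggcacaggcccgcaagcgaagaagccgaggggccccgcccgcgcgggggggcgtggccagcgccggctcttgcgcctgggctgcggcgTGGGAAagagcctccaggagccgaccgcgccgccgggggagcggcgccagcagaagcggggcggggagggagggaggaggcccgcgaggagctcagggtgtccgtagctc
Irx4: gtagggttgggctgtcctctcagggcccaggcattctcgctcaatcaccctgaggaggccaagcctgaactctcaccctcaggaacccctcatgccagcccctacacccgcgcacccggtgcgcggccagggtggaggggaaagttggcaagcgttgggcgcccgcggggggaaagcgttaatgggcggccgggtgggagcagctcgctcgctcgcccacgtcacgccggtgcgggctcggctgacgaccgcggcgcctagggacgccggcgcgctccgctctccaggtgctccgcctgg
Irx3: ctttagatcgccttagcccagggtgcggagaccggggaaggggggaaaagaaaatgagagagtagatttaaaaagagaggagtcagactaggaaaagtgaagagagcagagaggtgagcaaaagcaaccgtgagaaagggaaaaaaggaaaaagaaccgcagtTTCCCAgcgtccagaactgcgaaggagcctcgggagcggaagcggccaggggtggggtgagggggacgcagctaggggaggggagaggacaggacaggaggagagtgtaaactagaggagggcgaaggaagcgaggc
Hand2: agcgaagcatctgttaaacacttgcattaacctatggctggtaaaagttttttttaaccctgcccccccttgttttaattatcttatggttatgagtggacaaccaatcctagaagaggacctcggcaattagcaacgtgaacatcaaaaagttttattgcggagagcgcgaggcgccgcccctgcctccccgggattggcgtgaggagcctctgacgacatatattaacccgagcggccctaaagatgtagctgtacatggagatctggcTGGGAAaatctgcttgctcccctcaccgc

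The core motif was found in 3 of the 6 promoters, those of Hey2, Irx3 and Hand2, against 25.7% of all 33469 promoters. In Hey2 it lay 175 bases (opposite strand) and 60 bases (same strand) before the gene start, in Irx3 it lay 87 bases before (opposite strand) and in Hand2 it began at base 22 after it. The hexamer bound by nuclear receptors such as Nr2f2, AGGTCA or TGACCT, was in none of the 6, against 16.2% of all promoters. A match describes letters and not a bound site.

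Hey1 and Hey2, the Notch-responsive repressors, had the same order of groups, highest in the right atrium after shunt and lowest in the left atrium of sham rats. Hey1 (1386080_at) lay at 8.17, 7.86 and 8.16 in the right atrium sham pools, at 8.50, 8.69 and 8.55 after shunt, at 7.14, 6.89 and 7.0 in the left atrium sham pools and at 7.53, 7.40 and 7.21 after shunt. The 4 groups did not overlap in Hey1. Hey2 (1384515_at) lay at 6.59, 6.16 and 6.46 in the right atrium sham pools, at 6.95, 7.26 and 7.10 after shunt, at 5.43, 5.61 and 5.46 in the left atrium sham pools and at 5.71, 6.01 and 5.68 after shunt. Its groups did not overlap either, in the same order as in Hey1.

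In the right atrium Hey2 rose by 0.70 ± 0.12 on the log2 scale after shunt (SE, n = 3 pools per group, adjusted p = 0.0136), a 1.63-fold rise. Hey1 rose by 0.52 ± 0.11 (adjusted p = 0.0285), or 1.43-fold. Of all probe sets, 0.59% differed by as much as Hey2 and 1.62% by as much as Hey1. In the left atrium the differences were 0.30 ± 0.12 for Hey2 (adjusted p = 0.313) and 0.37 ± 0.11 for Hey1 (adjusted p = 0.146), and neither passed. The left minus right difference of these shunt effects did not pass for Hey2 (-0.40, 95% interval -0.78 to -0.02, adjusted p = 0.323) or Hey1 (-0.14, 95% interval -0.48 to 0.19, adjusted p = 0.695). The Hey2 call in the right atrium was lost without right atrium shunt replicate 2 (adjusted p up to 0.0735) or without right atrium sham replicate 2, and Hey1 did not pass without any 1 of the 6 right atrium arrays (adjusted p up to 0.122), with differences of 0.58 to 0.79 for Hey2 and 0.41 to 0.57 for Hey1.

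Between the sides the difference was larger than that of shunt. In sham rats the left minus right difference of Hey1 was -1.06 ± 0.11 (adjusted p = 1.64e-05), a level 2.08-fold lower on the left, and that of Hey2 was -0.90 ± 0.12 (adjusted p = 0.000132). After shunt the same comparison gave -1.20 for Hey1 (adjusted p = 1.2e-05) and -1.31 for Hey2 (adjusted p = 1.57e-05). By the root mean square difference of mean-centred profiles over the 12 arrays, the gene nearest to Hey1 was Hey2 (0.151, against a spread of 0.618 for Hey1 itself), followed by Acer2, Tmem273, Ttr and Clec7a. Nearest to Hey2 were Itga9 (0.145), Hey1, Tmem273, Dnah7 and Rarres1.

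**Figure D2:**
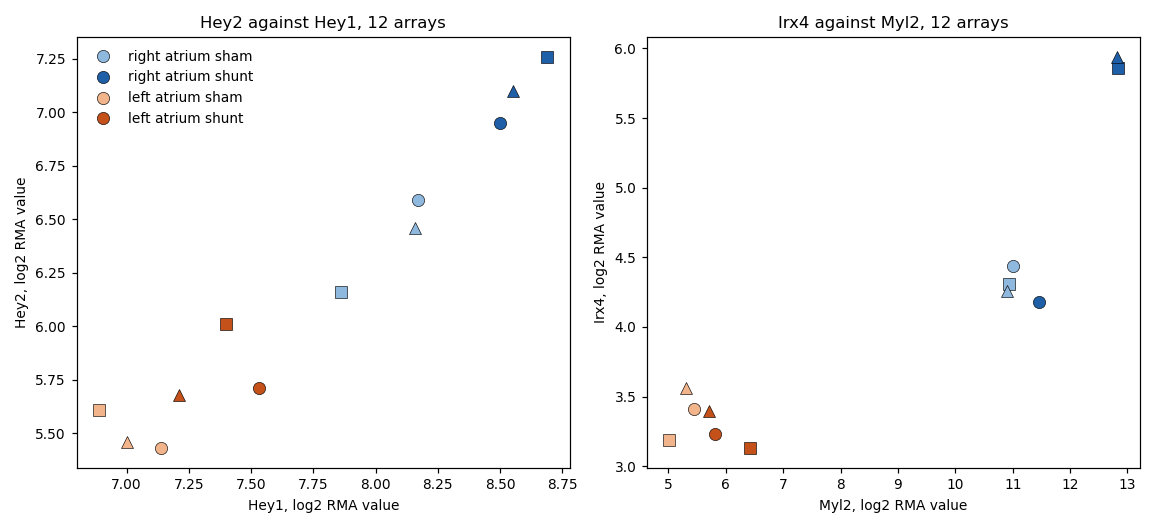
Left, Hey2 against Hey1 (log2 RMA values) on the 12 arrays: the right atrium shunt arrays lie highest on both axes and the left atrium arrays lowest. Right, Irx4 (1392981_at) against Myl2: 2 right atrium shunt arrays lie above 5.8 for Irx4 and above 12.8 for Myl2, while the replicate 1 array of that group lies near the sham arrays.

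Of 20 measured Notch pathway genes, none passed after shunt in the right atrium, against 3.97% of all genes on 1 probe set per gene, and none in the left, against 0.935%. In the right atrium 15 of 20 were positive, with a median of 0.11 against 0.02 over all genes. The largest differences there were Nrarp, a Notch-induced inhibitor, at 0.57 (adjusted p = 0.0691) and the receptor Notch3 at -0.42 (adjusted p = 0.076), and in the left atrium Jag1, a ligand, at 0.32 and Nrarp at 0.31. Between sham atria 7 were higher on the left and 3 lower, against 37.6% of all genes called. Heyl, another Hey family gene, was higher in the left atrium by 1.32 (adjusted p = 2.44e-06), the ligands Jag2 by 0.84 and Dll1 by 0.51, and the protease Adam10 by 0.51. Heyl thus lay on the other side from Hey1 and Hey2, and its shunt difference in the right atrium was 0.21 (adjusted p = 0.293). Of 7 endothelial genes Esam rose in the right atrium and all 7 were positive, with a median of 0.20. Their mean lay at 8.87 to 8.96 in right atrium sham pools and at 9.08 to 9.20 after shunt. Of 5 macrophage genes Mrc1 (0.59, adjusted p = 0.0427) and Lyz2 (0.68, adjusted p = 0.0278) rose and all 5 were positive, with a median of 0.55 and means of 7.46 to 7.57 in the sham and 7.98 to 8.10 in the shunt pools. Of 6 smooth muscle and pericyte genes Pdgfrb rose by 0.82 (adjusted p = 0.0106) and all 6 were positive, with a median of 0.21 and means of 7.16 to 7.38 in the sham and 7.56 to 7.68 in the shunt pools. The part of these cells in the Hey1 and Hey2 differences was not tested, and in these whole-tissue pools a change in the number of cells of a type and a change in RNA per cell cannot be told apart.

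Irx4, the ventricular homeobox factor, was uneven over the right atrium shunt pools. Its probe set 1392981_at lay at 4.44, 4.31 and 4.26 in the right atrium sham pools and at 4.18, 5.86 and 5.94 after shunt. It lay at 3.41, 3.19 and 3.56 in the left atrium sham pools and at 3.23, 3.13 and 3.40 after shunt. Replicates 2 and 3 of the right atrium shunt group were thus above all other arrays, and replicate 1 was below all 3 sham pools of its side. The range of 1.76 over these pools was exceeded by 9 of 31042 probe sets, and 0.193% of all probe sets reached a range of 1 log2 there. No other probe set of the 9 genes did so, in this or another group.

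The right atrium shunt difference of Irx4 was 0.99 ± 0.34 (SE, n = 3 pools per group, adjusted p = 0.13) and did not pass. It was 1.57 (adjusted p = 0.000594) without right atrium shunt replicate 1, and with that array as the only one of its group it was -0.16 (adjusted p = 0.756). In the left atrium Irx4's shunt difference was -0.13 ± 0.34 (adjusted p = 0.903). The left minus right difference of the effects was -1.12 (adjusted p = 0.314), and -1.70 without right atrium shunt replicate 1 (adjusted p = 0.00402), the only probe set of the 9 genes that passed there when 1 array was left out. Between sham atria Irx4 was lower on the left (-0.95 ± 0.34, adjusted p = 0.0437), a call lost in 8 of 12 exclusions of 1 array, with an adjusted p of up to 0.12, while the difference stayed between -1.04 and -0.85. The 8 arrays were all 3 right atrium sham and all 3 left atrium sham replicates and left atrium shunt replicates 1 and 2. After shunt the left minus right difference was -2.07 (adjusted p = 0.000549), and between -2.65 and -1.77 when 1 array was left out, passing in 12 of 12 exclusions. With right atrium shunt replicate 1 as the lone array of its group it was -0.93 (adjusted p = 0.00527). The other Irx4 probe set, 1390081_at, was dimmer (mean 3.78, above 21.9% of all probe sets) and showed neither pattern, with values of 3.64 to 3.72 in the right atrium shunt pools and 3.59 to 3.73 in the sham pools. The left atrium sham pools lay at 3.62, 4.09 and 4.22, a left minus right difference of 0.32 (adjusted p = 0.101), opposite in sign to 1392981_at. The difference of 1390081_at passed with array weights (0.35, adjusted p = 0.0433) and without left atrium sham replicate 1 (0.50, adjusted p = 0.0085). As the mean of both probe sets Irx4 did not pass between sham atria (-0.31, adjusted p = 0.194).

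Some ventricular muscle genes were uneven over the same pools. In 13 probe sets right atrium shunt replicate 1 lay at least 1 log2 below both other pools, and the 5 of these with a single gene symbol were those of RT1-Bb, Irx4, Rpl3l, Myl2 and Myl3, named here after their values were seen. RT1-Bb is a histocompatibility gene and Rpl3l a ribosomal protein of striated muscle. Myl2 (1388200_at) lay at 11.45 on replicate 1 and at 12.83 and 12.82 on replicates 2 and 3, and Myl3, the ventricular essential light chain, at 10.78, 12.05 and 11.92. Rpl3l lay at 6.66, 8.32 and 8.19. Replicate 1 was also the lowest, by less than 1 log2, in other genes of the ventricular list. Myh7 lay at 9.45, 10.46 and 10.01, Fhl2 at 10.06, 10.92 and 10.94, and Pln at 13.07, 13.19 and 13.27. This order was not shared by Kcnj2 (3.29, 3.27 and 3.43) or Kcne1 (4.85, 4.55 and 4.44, highest on replicate 1). Of 8 ventricular muscle genes, 4 rose in the right atrium after shunt: Rpl3l by 1.5 (adjusted p = 0.0332), Myh7, beta myosin, by 1.48 (adjusted p = 0.0068), Myl3 by 1.45 (adjusted p = 0.0317) and Myl2 by 1.42 (adjusted p = 0.0285). The median of the 8 was 0.81 against 0.02 over all genes, and Pln, the inhibitor of the calcium pump, was at -0.03. In the left atrium Myh7 (1386993_at) rose too, by 1.44 (adjusted p = 0.0124), and 7 of the 8 did not pass. Another Myh7 probe set, 1367928_at, rose in the right atrium by 1.57 (adjusted p = 0.0258) but did not pass in the left (1.26, adjusted p = 0.104). Between sham atria 1367928_at was higher on the left (0.9, adjusted p = 0.0468), opposite in sign to 1386993_at (-0.55, adjusted p = 0.0745). A second, dim probe set of Myl2 (1388293_at) fell by 0.55 (adjusted p = 0.0418). The mean of Myl2, Myl3 and Myh7 lay at 9.77 to 9.96 in the right atrium sham pools, at 10.56, 11.78 and 11.58 in the shunt pools, at 6.97 to 7.52 in the left atrium sham pools and at 8.31, 8.66 and 7.96 in the left atrium shunt pools. Whether ventricular tissue in the right atrium samples has a part in the Irx4, Irx3 and Hey2 values was not tested.

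**Figure D3:**
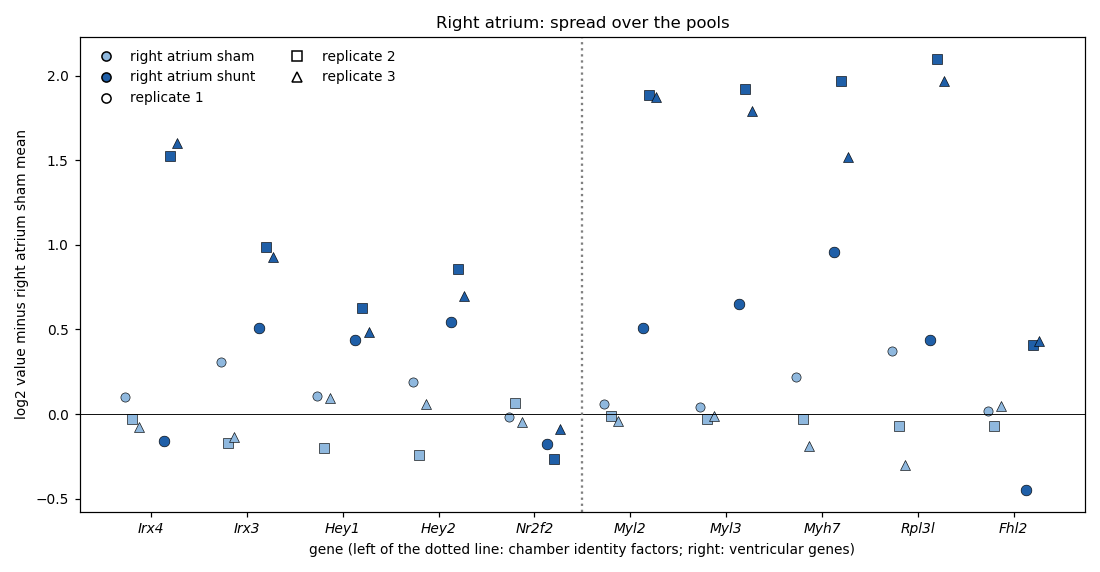
Log2 value minus the right atrium sham mean (y axis) of 5 chamber identity factors (Irx4 as 1392981_at, Irx3 as 1390776_at) and 5 ventricular genes on the 3 sham and 3 shunt right atrium pools, told apart by colour, with a symbol shape per replicate number. Replicate 1 of the shunt group lies below replicates 2 and 3 in Irx4, Irx3, Hey1, Hey2 and the 5 ventricular genes, and above all sham pools in Irx3, Hey1, Hey2, Myl2, Myl3, Myh7 and Rpl3l but not in Irx4 or Fhl2.

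The 5 genes with profiles nearest to Irx4 were Rpl3l (root mean square difference 0.291, against a spread of 0.934 for Irx4), Pcdh20 (0.406), Fhl2 (0.439), Nedd1 and Vgll3. Pcdh20 is a protocadherin and Fhl2 a LIM protein of heart muscle. Fhl2 lay at 10.06 on right atrium shunt replicate 1 and at 10.92 and 10.94 on the others, with the sham pools at 10.44 to 10.56, so that it too was lowest on replicate 1. Unlike Irx4, Fhl2 had a right atrium shunt difference near 0 (0.13, adjusted p = 0.757).

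Irx3, a homeobox factor of the ventricular conduction system, rose in the right atrium on 1 of its 3 probe sets. On 1390776_at it lay at 4.03, 3.55 and 3.59 in the right atrium sham pools, at 4.23, 4.71 and 4.65 after shunt, at 3.23, 3.15 and 3.01 in the left atrium sham pools and at 3.32, 3.12 and 3.16 after shunt. All right atrium shunt pools lay above the sham pools, replicate 1 least so, and the left atrium groups overlapped. The rise was 0.81 ± 0.14 (adjusted p = 0.0137), as large as that of 0.425% of all probe sets, and the left atrium difference was 0.07 ± 0.14 (adjusted p = 0.873). The left minus right difference of these effects was -0.74 (95% interval -1.18 to -0.30, adjusted p = 0.175) and did not pass. The call was lost without right atrium shunt replicate 2 or right atrium sham replicates 2 or 3 (adjusted p up to 0.0742), at differences of 0.72 to 0.96. On this probe set Irx3 was lower in the left atrium, with a difference of -0.59 in sham rats (adjusted p = 0.00632) and -1.33 after shunt (adjusted p = 3.47e-05). The other probe sets, 1394251_x_at and 1386520_at, gave -0.11 (adjusted p = 0.666) and 0.02 (adjusted p = 0.933) for shunt in the right atrium, and passed in no comparison. Their left minus right differences were opposite in sign to 1390776_at. They were 0.05 and 0.18 in sham rats and 0.18 and 0.15 after shunt. As the mean of its 3 probe sets Irx3 did not pass for shunt in the right atrium (0.24) or between sham atria (-0.12). The brightest of the 3 was 1394251_x_at, whose name marks probes that can match other transcripts, and 1390776_at was dim (mean 3.65, above 18.7% of all probe sets). Nearest to 1390776_at in profile was Hey2 (0.188), followed by Reg3g, Itsn2, Dnah7 and Sele.

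Irx5 had no call for shunt. Its probe set 1385914_at lay between 4.31 and 4.62 in the right atrium and between 4.59 and 4.85 in the left, and it was higher on the left after shunt by 0.33 (adjusted p = 0.0248), a call lost without right atrium shunt replicates 1 or 2 or left atrium shunt replicates 2 or 3. In sham rats the difference was 0.22 (adjusted p = 0.117). The other probe set, 1386823_at, was near the bottom of the scale (mean 3.17, above 7.71% of all probe sets).

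Of 11 measured genes of conduction and outward currents linked to Irx factors, none passed in the right atrium after shunt, where Kcnip2 was at 0.42 and Cntn2 at 0.34. In the left atrium Kcnip2, an accessory protein of transient outward potassium channels, rose by 1.36 (adjusted p = 0.0153), and Kcnd2, one of their pore subunits, fell by 0.70 (adjusted p = 0.0163). In the mouse Kcnd2 is repressed by Irx5, whose left atrium difference was 0.10 ± 0.10 (adjusted p = 0.734). Between sham atria Kcnip2 (-2.31, adjusted p = 9.33e-06) and Kcnd3 (-0.63, adjusted p = 0.00012) were lower on the left, and 9 of 11 did not pass.

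Hand2 and Hand1, the ventricular bHLH factors, were higher in the left atrium and had no call for shunt in either atrium. Hand2 (1369817_at) lay at 5.86, 5.58 and 5.53 in the right atrium sham pools, at 5.32, 5.23 and 5.16 after shunt, at 6.86, 6.81 and 7.06 in the left atrium sham pools and at 6.99, 6.60 and 6.66 after shunt. Left and right did not overlap, and the right atrium shunt pools lay below the sham pools. The left minus right difference was 1.25 ± 0.12 in sham rats (adjusted p = 9.04e-06), a 2.38-fold difference reached by 1.59% of all probe sets, and 1.51 ± 0.12 after shunt (adjusted p = 4.1e-06). Its right atrium shunt difference was -0.42 ± 0.12 (adjusted p = 0.0778). It passed without left atrium shunt replicate 1, with array weights (adjusted p = 0.0406) and when right atrium arrays were fitted by themselves (adjusted p = 0.0453).

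The brighter Hand2 probe set, 1374451_at, also differed between sides, by 0.69 ± 0.077 in sham rats (adjusted p = 2.92e-05) and 0.63 after shunt, but not with shunt in the right atrium (0.05, 95% interval -0.11 to 0.22, adjusted p = 0.763). Hand1 (1370128_at) lay at 5.63 to 5.88 over the 6 right atrium arrays and at 6.07 to 6.46 over the 6 left atrium arrays. It was higher on the left by 0.47 ± 0.11 in sham rats (adjusted p = 0.0038) and by 0.51 ± 0.11 after shunt (adjusted p = 0.00255). As the mean of its 2 probe sets Hand1 did not pass in sham rats (0.12, adjusted p = 0.286). The shunt differences of 1370128_at were -0.02 (95% interval -0.25 to 0.21) in the right and 0.02 (95% interval -0.21 to 0.25) in the left atrium. The dimmer Hand1 probe set, 1375301_at, gave -0.23 for left minus right in sham rats (adjusted p = 0.0748), opposite in sign to 1370128_at and not called. With shunt 1375301_at gave -0.27 in the right atrium (95% interval -0.48 to -0.07, adjusted p = 0.134) and 0.15 in the left (adjusted p = 0.519). The left minus right difference of these effects was 0.43 (95% interval 0.14 to 0.72, adjusted p = 0.211). Its right atrium difference passed with array weights (adjusted p = 0.0492).

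Neuronal genes, given because Hand2 is active in sympathetic neurons, had a mean over 9 genes of 4.24 to 4.34 in the left atrium sham pools and 4.37 to 4.47 in the right atrium sham pools. Gap43 was lower on the left (-1.10, adjusted p = 9.86e-05) and the other 8 did not pass, among them Dbh at 0.16 and Phox2a at 0.15. After shunt the mean of the 9 genes lay at 4.48, 4.61 and 4.92 in the left and at 4.43 to 4.49 in the right atrium. The value of 4.92 was that of replicate 3, which was also highest of its group in the mean of the adipocyte genes. In this comparison 4 of the 9 were higher on the left, as Hand2 was, against 37.7% of all probe sets called (20.2% higher, 17.4% lower). They were Th (0.28, adjusted p = 0.0355), Phox2a (0.37, adjusted p = 0.0167), Nefl (0.67, adjusted p = 0.0341) and Uchl1 (0.70, adjusted p = 0.00226). Nefl lay at 3.17, 3.24 and 4.35 in the left atrium shunt pools, the highest value again on replicate 3. Gap43 was lower (-0.56, adjusted p = 0.00971), and 4 did not pass. Some other cell type markers were higher on the left in sham rats, as Hand1 and Hand2 were, in a comparison where 37.6% of all genes were called. Of 4 mesothelial and epicardial genes 3 passed (Msln, Krt19 and Upk1b), with a median of 0.82 and means of 7.55 to 7.88 on the left and 6.83 to 7.17 on the right. The remaining gene, Wt1, had the other sign (-0.23, adjusted p = 0.175). After shunt Wt1 was lower on the left (-0.53, adjusted p = 0.00614) and Upk1b did not pass (0.50, adjusted p = 0.114). Of 6 smooth muscle and pericyte genes 4 passed, with a median of 0.49 and means of 7.66 to 7.79 on the left and 7.16 to 7.38 on the right. Signs were mixed in 2 further cell types between sham atria. Among 7 fibroblast genes Col1a1, Col1a2 and Col3a1 were higher on the left and Dcn lower (median -0.07). Among 7 endothelial genes Pecam1, Tie1 and Esam were higher and Kdr lower (median 0.13). The part of neurons, mesothelium, smooth muscle, fibroblasts and endothelium in the Hand1 and Hand2 values was not tested. Of 10 bHLH partners and inhibitors none passed after shunt in either atrium. Between sham atria 5 were lower on the left, among them Id4 (-1.45, adjusted p = 7.25e-07), Id2 (-1.42) and Tcf12 (-0.81), and Tcf3 was higher by 0.86. Id proteins bind and inhibit bHLH partners of Hand and Hey proteins.

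Nr2f2, the atrial identity receptor, was among the brighter probe sets and lower after shunt in both atria, without a call. On 1389554_at it lay at 9.04, 9.12 and 9.01 in the right atrium sham pools, at 8.88, 8.79 and 8.97 after shunt, at 9.43, 9.48 and 9.35 in the left atrium sham pools and at 9.08, 9.23 and 9.26 after shunt. The shunt pools lay below the sham pools in each atrium. The differences were -0.18 ± 0.077 in the right (adjusted p = 0.227) and -0.23 ± 0.077 in the left atrium (adjusted p = 0.2). A second probe set, 1370063_at, gave -0.26 (adjusted p = 0.123) and -0.22 (adjusted p = 0.281), with no overlap of shunt and sham pools in either atrium. The third, 1395863_at, gave -0.25 in the right atrium (adjusted p = 0.143) and -0.00 in the left (adjusted p = 0.99). Between sham atria 1389554_at was higher on the left by 0.37 ± 0.077 (adjusted p = 0.00269). As the mean of its 3 probe sets, Nr2f2 passed for shunt in the right atrium (-0.23, adjusted p = 0.0364) and did not pass between sham atria (0.13, adjusted p = 0.0824). Nr2f2 is also a factor of veins and lymphatic vessels, and of 4 lymphatic endothelial genes none passed after shunt in either atrium. Between sham atria Pdpn (0.81, adjusted p = 0.000409) and Flt4 (0.32, adjusted p = 0.0268) were higher on the left, as Nr2f2 was, and Prox1 was lower (-0.42, adjusted p = 0.00111). Their part in the Nr2f2 values was not tested.

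Lrrc10, the cardiac muscle protein, was bright (above 99.3% of all probe sets), with pools of a group within 0.12 of each other. It lay at 11.71, 11.81 and 11.83 in the right atrium sham pools, at 12.02, 11.95 and 11.95 after shunt, at 12.29, 12.26 and 12.21 in the left atrium sham pools and at 12.35, 12.38 and 12.33 after shunt. The 4 groups did not overlap. It was higher on the left by 0.47 ± 0.065 in sham rats (adjusted p = 0.000132) and by 0.38 ± 0.065 after shunt (adjusted p = 0.000719). The shunt differences of 0.19 ± 0.065 in the right atrium (adjusted p = 0.129) and 0.10 ± 0.065 in the left (adjusted p = 0.536) did not pass. Lrrc10 thus stood on the other side from Irx4, Hey2 and Myl2, which were lower in the left atrium.

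**Figure D4:**
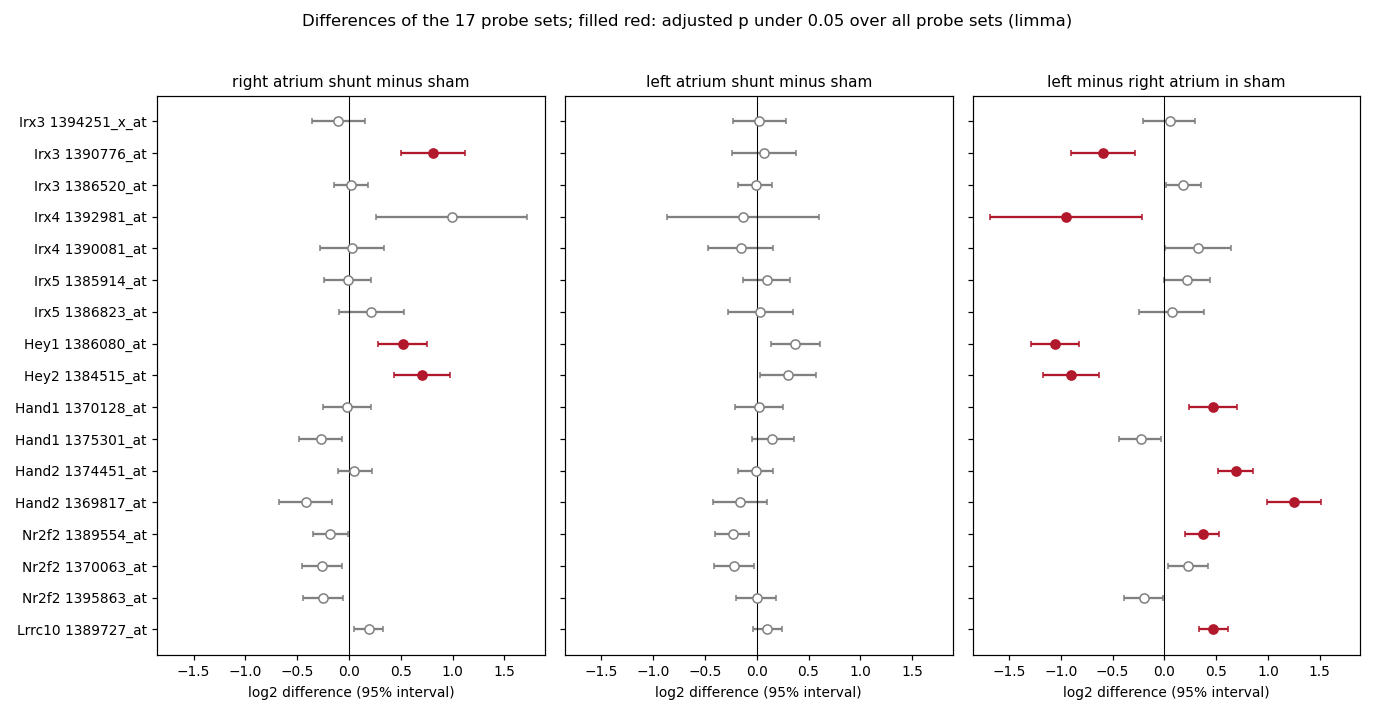
Log2 difference with its 95% interval from the limma fit (x axis) of the 17 probe sets (rows) for 3 comparisons: shunt against sham on each side, and left against right among sham rats. Filled red points passed an adjusted p of 0.05: 3 for shunt on the right, 0 on the left and 9 between sham atria.

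Over all 17 probe sets, 3 rose and none fell in the right atrium after shunt (17.6%, against 2.97% of all probe sets called, 1.90% higher and 1.07% lower). The right atrium shunt and sham pools did not overlap in 9 probe sets, 4 higher and 5 lower, against 28.4% of all, 14.9% higher and 13.5% lower. In the left atrium none passed in limma, against 0.751% of all probe sets. The left atrium shunt and sham pools did not overlap in 6, 4 higher and 2 lower, against 16.9% of all, 7.69% higher and 9.21% lower. Left atrium shunt replicate 3 was the highest of its group in the adipocyte mean. Without it again none passed, against 554 of all 31042 probe sets, with Hey1 at 0.46 (adjusted p = 0.0646) and Hey2 at 0.36 (adjusted p = 0.234). For the left minus right difference of the shunt effects none passed in limma, against 0.0258% of all. After shunt 11 of 17 differed between the sides (64.7%), 7 higher and 4 lower on the left, against 37.7% of all (20.2% higher, 17.4% lower), and each of the 9 genes had a call. The beta-actin control, 3' probes minus 5' probes, a sign of RNA quality, lay at 1.91 to 2.03 in the right atrium shunt pools, 1.58 to 1.82 in the sham pools and 1.14 to 1.39 in the left atrium. The GAPDH control lay at 0.35 to 0.38 in the right atrium shunt pools, 0.32 to 0.40 in the sham pools and 0.18 to 0.28 in the left atrium. The part of RNA quality in these differences was not tested.

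Among 21 other cardiac transcription factors none passed after shunt in either atrium. In the right atrium the largest differences were Tbx5, a factor of atrial and left ventricular muscle, at -0.38 (adjusted p = 0.127) and Shox2, a factor of the sinus node, at -0.32 (adjusted p = 0.214). In the left atrium they were Foxc1 at -0.69 (adjusted p = 0.115) and Hopx at 0.32 (adjusted p = 0.0987). Between sham atria 9 were higher and 4 lower on the left, led by Shox2 (-1.64, adjusted p = 3.54e-06), Heyl (1.32), Hopx (-1.32) and Foxc1 (1.21). Of 10 atrial muscle genes Kcna5, the channel of the ultrarapid potassium current, fell in the right atrium by 0.92 (adjusted p = 0.00839) and 9 did not pass. None passed in the left atrium, where Kcna5 was at -0.66 (adjusted p = 0.0609) and Kcnj3 at -0.38. Between sham atria Stard10 was higher on the left by 0.98 (adjusted p = 3.98e-06), and the other 9 did not pass.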

How the data were processed

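Transcripts were measured in 12 pools of rat atrial appendage on 1-colour Affymetrix arrays. The authors deposited log2 values per probe set. The submitters' processing notes name RMA, which corrects background, gives all arrays one distribution and combines probes. Its version is not given in the sources used here. Changes common to most transcripts cannot be seen, and dim values are compressed. The number of arrays limits the precision.

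Of 31099 probe sets, 57 controls were left out, and 20826 named 1 gene, 436 several and 9780 none. In lists the brightest probe set stood for a gene. All 9 symbols matched RefSeq. With limma 3.58.1 in R 4.3.3, group means were fitted to the deposited log2 values of all 12 arrays (two-sided, no filter or block), and the fit was tested on simulated data. All adjusted p-values come from it or its alternatives. The 9 genes are named whatever their values, with up to 4 called genes of each list, or else its 2 largest differences, and the 5 nearest profiles. Genes and lists were chosen with earlier results of these data known.

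Over all 18 same-numbered pairs of pools from different groups, 3 deviations from the group means correlated over 0.1, and the labels do not say what a number marks, so no block entered the fit. The left and right pools of one number and treatment correlated in 6 of 6 pairs (0.0789 to 0.148), and those of different number in 0 of 12 (-0.0887 to -0.0116). Alternatives were a filter on the dimmest 25%, other scalings, other variance settings, array weights, only the compared groups, replicate blocks, other rules for several probe sets, and leaving out arrays.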

Additional observations from a re-analysis of the deposited data

How the results depend on the processing

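Of 23 called differences of the 17 probe sets, 14 passed in every alternative that tested them, 9 did not in at least 1, and none turned. With array weights 5 of the 17 probe sets passed in the right atrium after shunt, against 3 in the main fit. In that setting 2352 of all 31042 probe sets passed. The 5 were 3 higher and 2 lower (Hand2 1369817_at and Hand1 1375301_at). Leaving out 1 array gave counts of 0 to 4 in the right atrium, with 0 without right atrium shunt replicate 2 or right atrium sham replicate 2 and 1 without right atrium sham replicate 3. Over all probe sets these exclusions gave 148, 234 and 312 calls, in that order. For the difference of the effects between atria, leaving out 1 array gave 0 to 1. As the mean of the probe sets of a gene, 4 of 9 genes passed between sham atria, 2 higher and 2 lower, against 5804 of all 14217 genes. The calls of Hand1 (0.12, adjusted p = 0.286), Nr2f2 (0.13, adjusted p = 0.0824), Irx4 (-0.31, adjusted p = 0.194) and Irx3 (-0.12) were lost. The Irx3 rise in the right atrium did not pass either (0.24). After shunt Irx3 was lower on the left (-0.33), where its probe set 1394251_x_at gave 0.18. With the replicate block the shunt counts were 3 on the right, 0 on the left, 0 for their difference, 9 between sham atria and 11 after shunt, as without it. A block of the left and right pools of one number within a treatment, added after seeing the data because these pools deviated together, also gave 0, 9 and 11 in the last 3 comparisons, and all members kept their side of the threshold. That pairing is a hint from the data. Over all probe sets the alternatives gave 19 to 2352 calls in the right atrium (against 923), 13 to 554 in the left (against 233) and 0 to 21 for the difference of effects (against 8). Under the dim filter 13 of the 17 probe sets were tested. No value here resolves whether dim probe sets (Irx3, Irx4, Irx5) measure low transcript levels.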

Other observations

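Genes with profiles nearest to the members higher on the left were also listed. For Hand2 (1369817_at) they were Pbx2 (root mean square difference 0.187, against a spread of 0.721 for Hand2), Lipe, Bcam, Ucp2 and Phospho1. For Hand1 (1370128_at) they were Atg4d (0.0654, against 0.269), Lrrc32, Rnf123, Dusp26 and Pla2g5. For Lrrc10 they were Anapc2 (0.05, against 0.229), Tubb5, Sod2, Sec61a1 and Lman1.

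The second Irx5 probe set, 1386823_at, lay at 3.66 on right atrium shunt replicate 1 and at 3.21 and 2.99 on the others, a range larger than that of 99.1% of all probe sets in that group and opposite in order to Irx4. In 8 probe sets replicate 1 lay at least 1 log2 above both other pools, against 13 below.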
